A study of Homo sapiens with 8 samples.

Results

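Molecular chaperones keep proteins folded. HSP70 proteins bind exposed hydrophobic stretches in cycles of ATP hydrolysis that J-domain proteins start and that nucleotide exchange factors, among them the HSP110 and BAG proteins, end, and HSP90 takes over many clients at a later stage of folding, including the androgen receptor on which most prostate cancers depend. HSP60 with HSP10 folds proteins in the mitochondrial matrix, the ring-shaped CCT complex folds actin and tubulin in the cytosol, and small heat shock proteins hold unfolded proteins without ATP. Many of these genes are switched on by the transcription factor HSF1 when unfolded proteins accumulate.

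The mRNA levels of this set were followed on 8 Affymetrix U133 Plus 2.0 arrays of 2 human prostate cancer lines. LNCaP was derived from a lymph node metastasis, and 22Rv1 from a relapsed CWR22 xenograft. Each line gave 1 array for each of 4 treatments: untreated, 4 hours in 10 mM caffeine (which the study used to inhibit nonsense-mediated mRNA decay, NMD, and which was quickly reversible), and caffeine followed by another 4 hours in 2 μg/ml actinomycin D (ActD, which stops transcription) either with 10 mM caffeine or alone. No array was repeated and each line is a single culture lineage, so nothing repeats a difference inside 1 line. The values as deposited are log2 signals normalized to the same distribution on every array (median 2.75, upper quartile 6.21), and a log2 signal of 4 is used as the floor for detection. Such values give a transcript's level relative to the other transcripts of its array, and because the RNA comes from many cells, fewer expressing cells and less RNA per cell cannot be told apart.

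Members were the genes of a fixed list of 45 symbols that own at least 1 probe set with a single gene symbol. There were 39 such genes, out of 19775 genes on the array, with 97 probe sets. For a gene with several probe sets the one of highest mean stands for it, and the others are called the second, the third and the fourth in the order of their means. HSPA1B, HSPA8 and TCP1 were represented only by probe sets that other genes share (3, 4 and 3 of them) and, like AHSA1 and HSF2, were not analysed here. HSPB11 is annotated as IFT25, an intraflagellar transport protein, and was kept out of the counts. Its signals ran from 11.24 to 11.59 in LNCaP and from 10.07 to 10.64 in 22Rv1. The name cytosolic and mitochondrial covers the set only in part, since HSPA13 and DNAJC10 are proteins of the endoplasmic reticulum and DNAJB12 and DNAJB14 sit in its membrane. On all 8 arrays 35 of the 39 genes were at 4 or more and 11 were at 10 or more. The 4 others were BAG2 and HSPB8, below the floor on 1 array each, and DNAJA4 and HSPA2, below it on all 4 LNCaP arrays.

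The following differences were computed: accumulation (caffeine minus untreated), degradation (ActD with caffeine minus ActD alone), decay (ActD alone minus caffeine), loss with caffeine kept (ActD with caffeine minus caffeine) and the cell line difference (LNCaP minus 22Rv1). Inside a line a member was counted past a difference of 1, a factor of 2 in signal, if it was detected on either array. A limma fit over all 8 arrays, in which the lines are the only replicates of a treatment, covered 21453 probe sets with Benjamini-Hochberg adjustment.
The prostate markers KLK3, KLK2, TMPRSS2, HOXB13, KRT8, KRT18 and EPCAM were detected on all 8 arrays, and the 4 leukocyte and 3 endothelial markers on none. Of the stroma markers LUM was at 9.42 to 10.21 in 22Rv1 only, COL1A1 was detected on all arrays, DCN on 6, and COL1A2 and COL3A1 on none. Spiked poly-A controls (24 probe sets) were lower by 0.21 in LNCaP and 0.26 in 22Rv1 after caffeine, and higher by 1.53 and 1.18 after ActD alone than after caffeine. The 18S rRNA probe sets averaged 11.71 on the LNCaP array of ActD with caffeine against 6.25 on that of ActD alone, and 7.08 against 6.00 in 22Rv1. Results after scaling on the poly-A controls are given below. The part of the 18S rRNA shift in the results was not tested.

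Heat shock genes carry heat shock elements, inverted repeats of a short unit that HSF1 binds, in their promoters. The letters of 3 such units in a row were searched on both strands in RefSeq promoters of GRCh38.p14. The units are GAA and TTC by turns, each pair set apart by 2 bases of any kind, starting with either. A promoter runs from 250 bases before to 50 after an annotated start, and a gene can have several (56 for the 39 listed genes). Matches were found in 7 of the 39 listed genes with a promoter in the table (17.9%), against 166 of 27305 genes in all (0.608%). These 39 are genes of the list of 45 with a promoter, not the 39 measured members. HSPA8, which was not analysed, is 1 of the 7. The letters of 2 units alone, which every 3-unit match also contains, were found in 48.7% of the listed genes and 16.2% of all genes. The matches of 5 of the 7 genes are shown because signals or differences of these genes are given below. Matched letters are in capitals, read on the gene's strand. HSPD1 lies at chr2:197500053-197500090 on the minus strand, HSP90AB1 at chr6:44247763-44247805 and chr6:44247816-44247858 on the plus strand, DNAJA1 at chr9:33025261-33025303 on the plus strand, CHORDC1 at chr11:90223072-90223124 on the minus strand, and HSP90AA1 at chr14:102087105-102087147 on the minus strand.
HSPD1: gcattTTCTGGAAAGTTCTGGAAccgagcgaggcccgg
HSP90AB1, first match: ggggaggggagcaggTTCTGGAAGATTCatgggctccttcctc
HSP90AB1, second match: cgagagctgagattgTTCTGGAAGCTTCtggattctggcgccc
DNAJA1: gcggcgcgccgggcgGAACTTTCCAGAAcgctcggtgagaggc
CHORDC1: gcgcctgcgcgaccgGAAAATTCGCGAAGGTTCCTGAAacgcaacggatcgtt
HSP90AA1: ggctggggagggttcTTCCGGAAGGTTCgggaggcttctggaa
Distances here are to the start of the promoter that was searched. The match in HSP90AA1 starts 88 bases before it and those in HSP90AB1 165 and 112 before. That in CHORDC1 starts 60 before, that in HSPD1 245 before and that in DNAJA1 3 after. In HSP90AA1, HSP90AB1 and HSPD1 the matches lie inside the gene's full span, not before its outermost start. These spans are chr14:102080742-102139749, chr6:44246194-44253883 and chr2:197486584-197500274. HSPD1 and CHORDC1 have overlapping matches that run over 18 and 23 bases. A match of letters is a description, not a binding site. The 6 measured genes with a 3-unit match (these 5 and DNAJB6) had a median accumulation of -0.05 in LNCaP and -0.13 in 22Rv1. The 16 measured genes with 2 or more units, these 6 included, had -0.01 and -0.325. The 18 measured genes with neither match had 0.05 and -0.14. The differences between these groups were not tested.

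Few chaperone mRNAs passed a difference of 1 after caffeine. In LNCaP 0 of 37 detected members were past 1 in either direction, against 5.19% of 10737 detected genes higher and 3.7% lower. In 22Rv1 3 of 39 were higher and 1 lower, against 8.41% of 10961 genes higher and 6.12% lower. The median member was at -0.003 in LNCaP and -0.13 in 22Rv1, beside -0.02 in each line for all genes. Across both lines limma called 0 of the 39 members (0.0277% of 10842 genes were called), and 5 of them (12.8%) had an unadjusted p under 0.05, 4 higher and 1 lower, beside 17.8% of all genes.

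**Figure D1:**
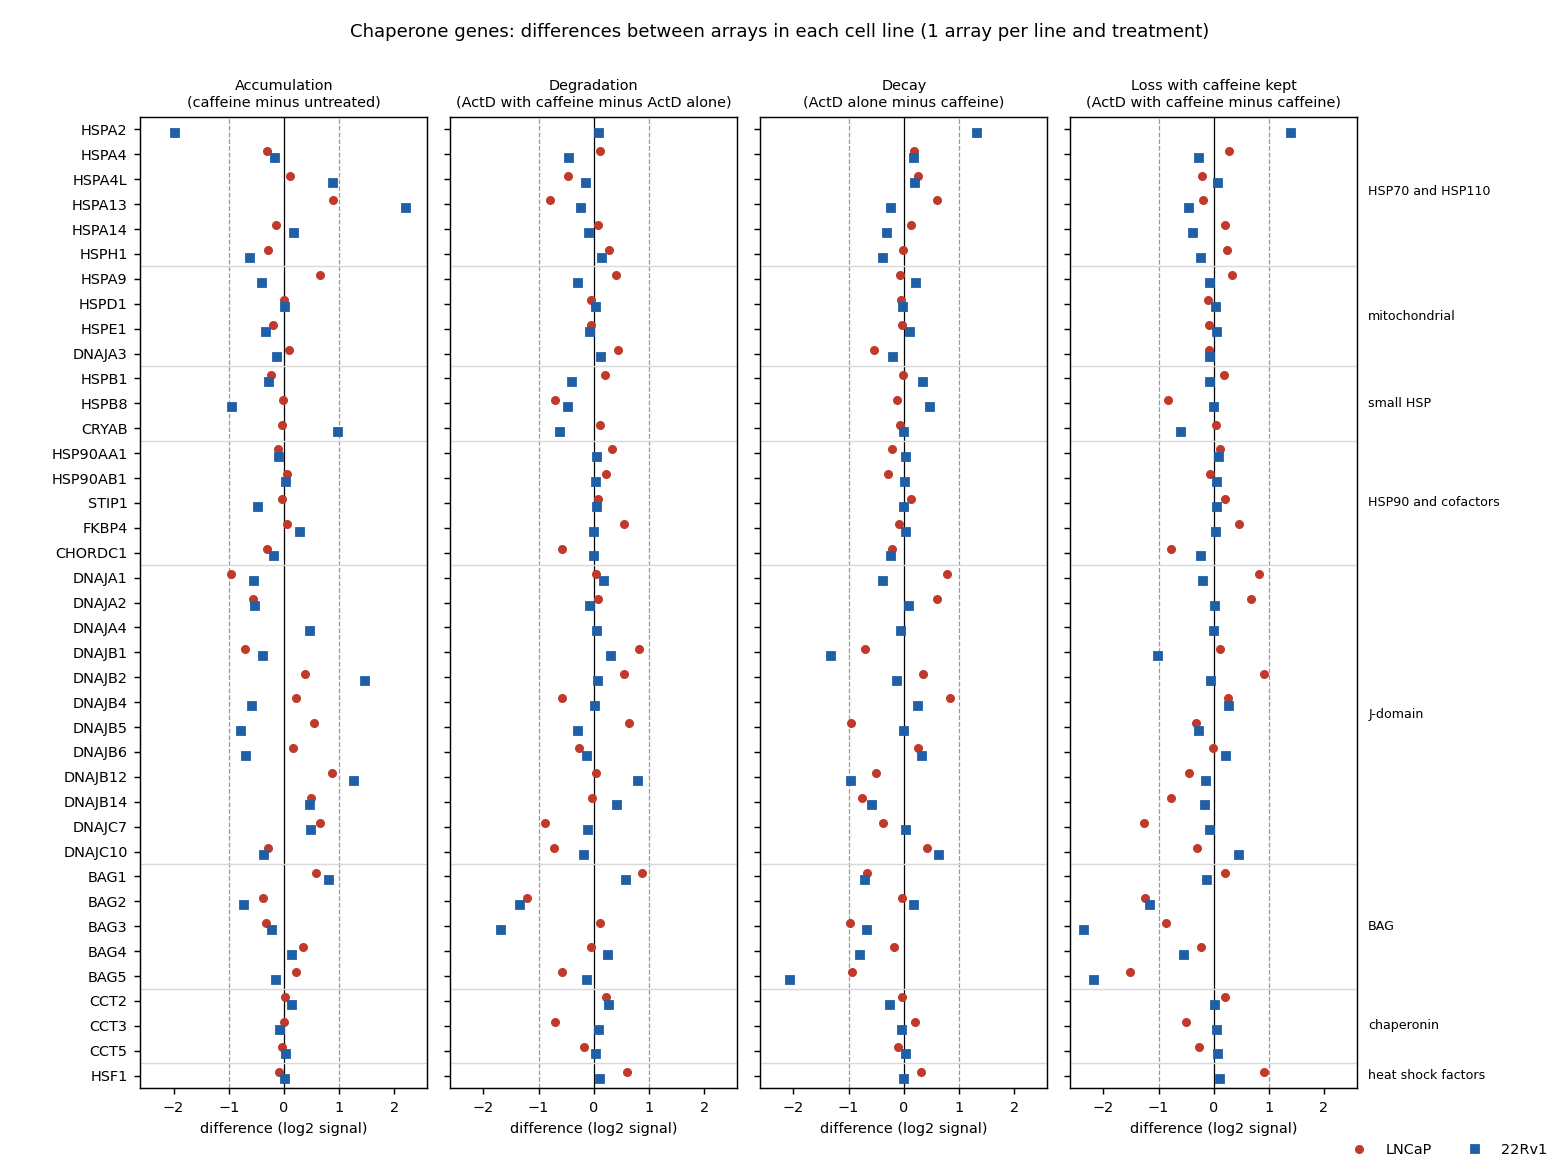
Difference in log2 signal (horizontal axis) of the 39 chaperone genes (rows, grouped by role) in 4 comparisons, with LNCaP as circles and 22Rv1 as squares, 1 array per line and treatment. Dashed lines mark a difference of 1 either way and genes not detected in a line are left out. Most points lie within 1 of zero, and those farthest left are BAG3 and BAG5 in the loss and decay panels.

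In the probe set of highest mean the chaperonin and HSP90 genes lay within 0.5 of zero after caffeine, and the 4 mitochondrial genes within 0.5 save HSPA9 in LNCaP. HSPA9, the mitochondrial HSP70 mortalin, had an accumulation of 0.65 in LNCaP and -0.39 in 22Rv1, while its 2 other detected probe sets gave -0.49 and 0.18 in LNCaP and -1.18 and -0.81 in 22Rv1. HSPD1, the mitochondrial HSP60, was at 14.28 to 14.38 on the 4 LNCaP arrays and 14.36 to 14.41 on the 4 22Rv1 arrays, and HSPE1, its HSP10 partner, at 11.98 to 12.27 and 12.01 to 12.32. The chaperonin subunits CCT2, CCT3 and CCT5 differed after caffeine by -0.04 to 0.02 in LNCaP and -0.08 to 0.15 in 22Rv1. The second probe set of CCT5 gave -0.03 and -0.67. Accumulation of the 5 genes of HSP90 and its cofactors ran from -0.30 (CHORDC1) to 0.05 (FKBP4) in LNCaP and from -0.48 (STIP1) to 0.30 (FKBP4) in 22Rv1. The second probe set of STIP1 gave 0.18 in LNCaP and -1.07 in 22Rv1, and the third of HSP90AB1 gave 0.22 and -0.51. In this group STIP1 bridges HSP70 and HSP90, FKBP4 is an immunophilin of steroid receptor complexes and CHORDC1 binds HSP90. HSF1 itself was at 7.56 untreated, 7.47 after caffeine, 8.39 after ActD with caffeine and 7.78 after ActD alone in LNCaP. In 22Rv1 it was at 7.95 untreated, 7.98 after caffeine, 8.09 after ActD with caffeine and 7.99 after ActD alone, and its accumulation was -0.09 in LNCaP and 0.03 in 22Rv1.

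After caffeine the J-domain genes lay on both sides of zero. In LNCaP 7 of the 11 detected were above zero and 4 below, and in 22Rv1 5 of 12 were above and 7 below. DNAJA1, a main cytosolic partner of HSP70 with a 3-unit element at its start, had in LNCaP 11.79 untreated, 10.82 after caffeine, 11.64 after ActD with caffeine and 11.60 after ActD alone. The 22Rv1 signals were 11.95 untreated, 11.42 after caffeine, 11.23 after ActD with caffeine and 11.05 after ActD alone. Caffeine gave the lowest of the 4 signals in LNCaP and not in 22Rv1. Its second probe set was at 8.44 after caffeine against 9.93 untreated in LNCaP and at 8.91 against 9.97 in 22Rv1. This probe set was lower by 1.49 and 1.06, but the limma estimate of -1.28 (SE 0.33) had an adjusted p of 0.147. The related DNAJA2 had 9.95 untreated, 9.39 after caffeine, 10.07 after ActD with caffeine and 9.99 after ActD alone in LNCaP. For 22Rv1 its signals were 8.85 untreated, 8.32 after caffeine, 8.35 after ActD with caffeine and 8.42 after ActD alone. Accumulation was close in the lines, at -0.56 in LNCaP and -0.53 in 22Rv1, although its other probe set gave -0.01 and -0.78. DNAJB1, the stress-inducible HSP40, was at 8.53 after caffeine against 9.24 untreated in LNCaP and at 8.85 against 9.22 in 22Rv1. Its second probe set had an accumulation of -0.24 in LNCaP and 0.16 in 22Rv1.

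Other J-domain genes had higher signals after caffeine. DNAJB12, a membrane J protein of the endoplasmic reticulum, had 8.46 untreated, 9.32 after caffeine, 8.87 after ActD with caffeine and 8.83 after ActD alone in LNCaP. 22Rv1 cells gave 6.43 untreated, 7.71 after caffeine, 7.56 after ActD with caffeine and 6.76 after ActD alone. Accumulation was 0.87 and 1.28, with a limma estimate of 1.07 (SE 0.26, adjusted p = 0.135), while its 3 other probe sets gave 0.02 to 0.51 in LNCaP and -0.68 to 0.00 in 22Rv1. DNAJB2, a J protein with ubiquitin-binding motifs, had 6.29 untreated, 6.68 after caffeine, 7.58 after ActD with caffeine and 7.03 after ActD alone in LNCaP. On the 22Rv1 arrays it was at 5.64 untreated, 7.11 after caffeine, 7.07 after ActD with caffeine and 6.99 after ActD alone. The untreated array was the lowest of the 4 in each line, and accumulation was 0.39 in LNCaP and 1.46 in 22Rv1. DNAJC7, which holds HSP70 and HSP90 through its TPR repeats, had 10.02 untreated, 10.68 after caffeine, 9.41 after ActD with caffeine and 10.30 after ActD alone in LNCaP. Signals in 22Rv1 were 9.65 untreated, 10.15 after caffeine, 10.07 after ActD with caffeine and 10.18 after ActD alone. DNAJB14, the membrane relative of DNAJB12, had 8.56 untreated, 9.05 after caffeine, 8.26 after ActD with caffeine and 8.29 after ActD alone in LNCaP and, in 22Rv1, 9.06 untreated, 9.54 after caffeine, 9.39 after ActD with caffeine and 8.97 after ActD alone. Its accumulation was 0.49 and 0.48 in this probe set, against -0.53 and -1.40 in the third.

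In the HSP70 family the largest values after caffeine belonged to HSPA13 and HSPA2. HSPA13, an HSP70 relative of the microsomes, had 6.99 untreated, 7.88 after caffeine, 7.69 after ActD with caffeine and 8.48 after ActD alone in LNCaP. The 22Rv1 arrays gave 7.44 untreated, 9.64 after caffeine, 9.19 after ActD with caffeine and 9.41 after ActD alone. Accumulation was 0.89 in LNCaP and 2.21 in 22Rv1 with a limma estimate of 1.55 (SE 0.35, adjusted p = 0.122), and its other probe set gave -0.05 and -0.42. HSPA2, best known from spermatogenesis, was below the floor in LNCaP, at 2.33 to 2.87. Its 22Rv1 values were 6.91 untreated, 4.93 after caffeine, 6.34 after ActD with caffeine and 6.25 after ActD alone, so the caffeine array was the lowest and both ActD arrays lay between it and the untreated array. It has a single probe set, and the difference of -1.98 rests on 2 arrays. HSPA14, a ribosome-bound HSP70, had 9.82 untreated, 9.68 after caffeine, 9.88 after ActD with caffeine and 9.81 after ActD alone in LNCaP and, in 22Rv1, 8.08 untreated, 8.28 after caffeine, 7.90 after ActD with caffeine and 7.98 after ActD alone. HSPH1, the HSP110 exchange factor, had 10.94 untreated, 10.65 after caffeine, 10.90 after ActD with caffeine and 10.62 after ActD alone in LNCaP and, in 22Rv1, 9.20 untreated, 8.59 after caffeine, 8.37 after ActD with caffeine and 8.23 after ActD alone.

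Among the small heat shock proteins HSPB8, which works with BAG3 in selective autophagy, had 4.56 untreated, 4.55 after caffeine, 3.72 after ActD with caffeine and 4.43 after ActD alone in LNCaP. Its signals in 22Rv1 came to 7.38 untreated, 6.43 after caffeine, 6.43 after ActD with caffeine and 6.90 after ActD alone, and its accumulation there was -0.95. CRYAB, the alpha-B crystallin chaperone, stayed at 4.85 to 4.97 on all LNCaP arrays. In 22Rv1 it had 4.12 untreated, 5.11 after caffeine, 4.51 after ActD with caffeine and 5.11 after ActD alone, with an accumulation of 0.99. HSPB1, the small heat shock protein HSP27, was at 13.14 to 13.38 in LNCaP and 11.87 to 12.27 in 22Rv1, with accumulation of -0.23 and -0.28.

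One probe set of HSP90AA1, the stress-inducible cytosolic HSP90, was the only member probe set called in a comparison of treatments. On the fourth probe set of this gene LNCaP had 13.27 untreated, 12.12 after caffeine, 13.43 after ActD with caffeine and 13.51 after ActD alone. The 22Rv1 signals were 11.63 untreated, 10.75 after caffeine, 12.12 after ActD with caffeine and 12.07 after ActD alone. The caffeine array was the lowest of the 4 in each line, and both ActD arrays were above the untreated one. In decay it rose by 1.36 (SE 0.20, adjusted p = 0.0369 by limma), higher by 1.39 in LNCaP and 1.32 in 22Rv1. Calls in decay stood at 1 higher and 0 lower of the 77 member probe sets tested (1.3%). Of all 21453 probe sets 2.34% were called, 102 higher (0.475%) and 399 lower. Accumulation was -1.16 in LNCaP and -0.88 in 22Rv1 (estimate -1.02, SE 0.20, adjusted p = 0.0985 by limma). The other 3 probe sets of the gene differed by -0.11 to 0.28 and -0.51 to -0.09 after caffeine, and by -0.21 to 0.03 and 0.04 to 0.52 in decay. The call in decay was lost when any 1 array was left out (adjusted p from 0.0571 to 0.216), and scaling on the poly-A controls took the estimate to 0.01.

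**Figure D2:**
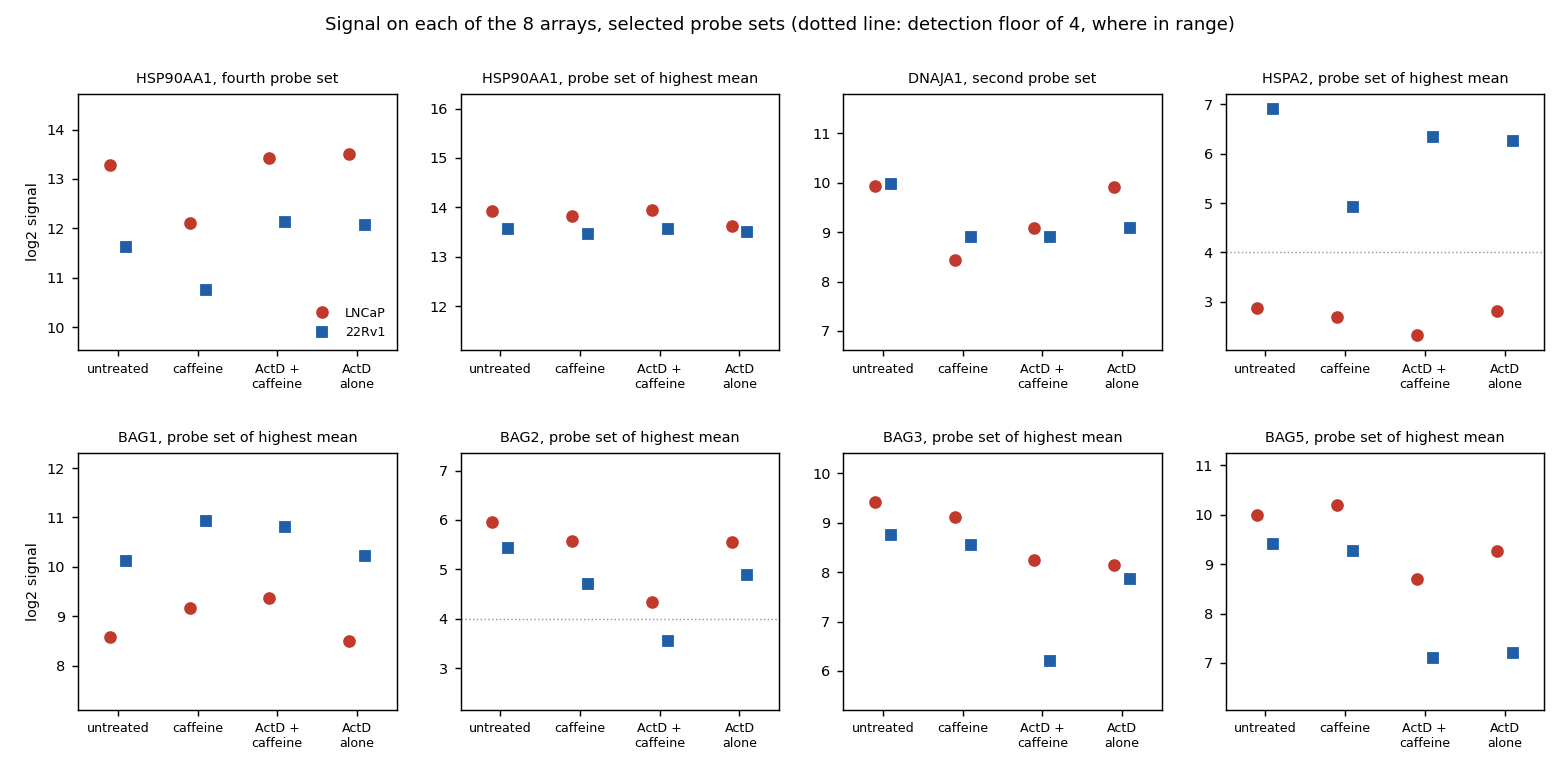
Log2 signal (vertical axis, a span of at least 5.2 in each panel) on each of the 8 arrays for 8 probe sets of chaperone genes, with LNCaP as circles and 22Rv1 as squares, treatments on the horizontal axis and a dotted line at the detection floor of 4 where in range. On the fourth HSP90AA1 probe set the caffeine arrays are lowest in each line while the first is level, and BAG2 is lowest after ActD with caffeine in each line.

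Degradation asks which mRNAs stay higher when NMD inhibition continues while transcription is stopped. In the probe set of highest mean, the members past a difference of 1 were all of the BAG family and lower with caffeine. Among other probe sets DNAJB4 (the second) was at -2.25 and DNAJB14 (the third) at -2.03 in LNCaP. HSPA14 (the third) was at -1.44 in 22Rv1. Upwards, BAG1 was at 1.15 (the second) and 1.19 (the third) in LNCaP. Scaling on the poly-A controls put 3 members higher by more than 1 in LNCaP and 1 in 22Rv1. It also put the median of all genes at 0.49 and 0.38. In LNCaP 0 of 37 members were higher and 1 lower, against 5.32% and 3.17% of 10700 genes. In 22Rv1 0 of 39 were higher and 2 lower, against 3.16% and 1.21% of 10823 genes. The median member was at 0.07 in LNCaP and 0.02 in 22Rv1, beside 0.10 and -0.02 for all genes. limma called 0 members and 0.0% of 10842 genes, and 2 members (5.13%) had an unadjusted p under 0.05, beside 6.75% of all genes.

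BAG2, which binds HSP70 and inhibits the ubiquitin ligase CHIP, was lower in each line. In LNCaP it had 5.96 untreated, 5.58 after caffeine, 4.34 after ActD with caffeine and 5.56 after ActD alone. For 22Rv1 its signals were 5.43 untreated, 4.70 after caffeine, 3.55 after ActD with caffeine and 4.88 after ActD alone, so its lowest signal there was under the floor of 4. The array of ActD with caffeine was the lowest in each line, while ActD alone was within 0.18 of caffeine. Degradation was -1.21 in LNCaP and -1.33 in 22Rv1 (limma estimate -1.27, SE 0.20, adjusted p = 0.269), and loss with caffeine kept was -1.24 and -1.15 (-1.19, SE 0.20, adjusted p = 0.135). Its 2 other probe sets were below the floor on every array.

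BAG1, an exchange factor of HSP70 that also binds steroid receptors, lay the other way. In LNCaP it had 8.59 untreated, 9.16 after caffeine, 9.37 after ActD with caffeine and 8.49 after ActD alone. 22Rv1 cells gave 10.11 untreated, 10.92 after caffeine, 10.80 after ActD with caffeine and 10.22 after ActD alone. In each line both arrays with caffeine in the medium to the end were above the untreated array and the array of ActD alone. Degradation was 0.88 in LNCaP and 0.57 in 22Rv1 (estimate 0.73, SE 0.20, adjusted p = 0.484 by limma), accumulation was 0.58 and 0.81 and decay -0.67 and -0.69. Its second probe set gave 1.15 and 0.78 for degradation.
BAG3, the stress-inducible partner of HSPB8, had 9.43 untreated, 9.11 after caffeine, 8.26 after ActD with caffeine and 8.14 after ActD alone in LNCaP. On the 22Rv1 arrays it was at 8.76 untreated, 8.55 after caffeine, 6.20 after ActD with caffeine and 7.87 after ActD alone. Degradation was 0.11 in LNCaP and -1.67 in 22Rv1, where the single array of ActD with caffeine stood 1.67 below the next lowest. Among the J proteins DNAJB1 was at 8.64 with caffeine against 7.82 without in LNCaP and at 7.83 against 7.53 in 22Rv1, DNAJB12 was at 0.05 and 0.80 for degradation, and DNAJC7 at -0.89 and -0.11. The second probe set of HSF1 was lower by 1.58 and 1.33 (estimate -1.45, SE 0.28, adjusted p = 0.33 by limma), whereas the first was higher by 0.61 and 0.10.

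After transcription was stopped with caffeine kept, BAG genes made up 2 of the 3 lowest members in LNCaP and all 3 in 22Rv1. In decay 0 of 37 members passed 1 upwards and 0 downwards in LNCaP (4.67% and 11.9% of 10782 genes), and 1 was higher and 2 lower in 22Rv1 (3.16% and 10.5% of 10952 genes). With caffeine kept, 3 were lower and 0 higher in LNCaP (8.54% lower and 4.69% higher of 10809 genes), and 4 were lower and 1 higher in 22Rv1 (7.14% lower and 1.93% higher of 10896 genes). Over the 5 BAG genes the median decay was -0.67 in LNCaP and -0.69 in 22Rv1, the median loss was -0.86 and -1.15 in the same order, with 4 of 5 below zero in LNCaP for loss and all 5 in 22Rv1. BAG6, which is not among the members, had a loss of 0.88 in LNCaP and -0.06 in 22Rv1 and a decay of 0.21 and 0.09. All 39 members had a median loss of -0.07 and -0.06. limma called 0 members in decay (2.56% of 10842 genes; 5 members, 12.8%, at an unadjusted p under 0.05, all lower, beside 20.8% of genes) and 0 in loss (0.0% of genes; 3 members, 7.69%, all lower, beside 11.8% of genes).

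BAG5, which carries several BAG domains, had 9.99 untreated, 10.21 after caffeine, 8.69 after ActD with caffeine and 9.26 after ActD alone in LNCaP. Signals in 22Rv1 were 9.41 untreated, 9.27 after caffeine, 7.10 after ActD with caffeine and 7.21 after ActD alone. The ActD arrays were below the untreated and caffeine arrays in each line. Decay was -0.94 in LNCaP and -2.06 in 22Rv1 (estimate -1.50, SE 0.38, adjusted p = 0.103 by limma) and loss -1.51 and -2.17 (-1.84, SE 0.38, adjusted p = 0.189). Its second probe set had the same signs, at -0.79 and -2.51 for decay and -1.17 and -3.05 for loss. The 22Rv1 ActD signals of that probe set, 2.95 with caffeine and 3.49 alone, were under the floor of 4. Its falls also start from a raised caffeine signal. Accumulation reached 1.59 (LNCaP) and 1.23 (22Rv1) there, against 0.22 and -0.14 in the first probe set. Its LNCaP ActD arrays, at 4.27 with caffeine and 4.65 alone, stayed above the untreated array, itself under the floor at 3.85. BAG3 was at -0.97 and -0.67 for decay and -0.86 and -2.35 for loss.

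Of the J-domain genes, DNAJB1 had 9.24 untreated, 8.53 after caffeine, 8.64 after ActD with caffeine and 7.82 after ActD alone in LNCaP. The 22Rv1 arrays gave 9.22 untreated, 8.85 after caffeine, 7.83 after ActD with caffeine and 7.53 after ActD alone. Decay was -0.71 in LNCaP and -1.32 in 22Rv1 (adjusted p = 0.138 by limma), and its second probe set gave -0.87 and -0.95 (adjusted p = 0.0885 by limma). DNAJB4, an HSP40 of the same class, had the highest decay value in LNCaP, 0.84. Its signals in LNCaP were 7.09 untreated, 7.30 after caffeine, 7.56 after ActD with caffeine and 8.14 after ActD alone. In 22Rv1 they were 6.29 untreated, 5.71 after caffeine, 6.00 after ActD with caffeine and 5.98 after ActD alone. DNAJB5, another member of that class, had 5.12 untreated, 5.66 after caffeine, 5.33 after ActD with caffeine and 4.70 after ActD alone in LNCaP and, in 22Rv1, 5.88 untreated, 5.10 after caffeine, 4.82 after ActD with caffeine and 5.10 after ActD alone. DNAJC10, a disulphide reductase of the endoplasmic reticulum, had 8.77 untreated, 8.48 after caffeine, 8.19 after ActD with caffeine and 8.90 after ActD alone in LNCaP and, in 22Rv1, 8.91 untreated, 8.55 after caffeine, 9.01 after ActD with caffeine and 9.19 after ActD alone. The mitochondrial genes lay near zero, with losses of -0.10 to 0.33 over HSPA9, HSPD1, HSPE1 and DNAJA3 in LNCaP and -0.06 to 0.05 in 22Rv1.
The values of this section are relative to each array. Scaling on the poly-A controls shifted the median of all genes by -1.53 in LNCaP and -1.18 in 22Rv1 for decay. The shift was -1.14 and -0.77 for loss, 0.21 and 0.26 for accumulation and 0.39 and 0.41 for degradation. The median of all genes then stood at -1.61 and -1.15 for decay and at -1.14 and -0.75 for loss. With this scaling limma called 37 of the 39 members lower in decay and 29 in loss. Every gene of an array moves by the same amount and no share of all genes called is given. The counts therefore cannot be read as particular to the members.

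How far 1 probe set stands for its gene was checked in the 26 members with at least 2 probe sets whose mean was 4 or more. In accumulation the highest and lowest probe set of a gene differed by more than 1 in 4 genes in LNCaP and 6 in 22Rv1, and had opposite signs in 9 and 13. Degradation gave 6 and 2 genes past 1, decay 6 and 6, and loss 9 and 2. HSPA4, an HSP110-type exchange factor, spanned 0.18 to 2.35 for decay in LNCaP. HSPA14 spanned -3.47 to -0.38 for loss in 22Rv1, where the third probe set was at 4.13 after ActD with caffeine against 7.60 after caffeine. The 2 HSP60 probe sets that were detected differed by no more than 0.27 in any comparison.

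**Figure D3:**
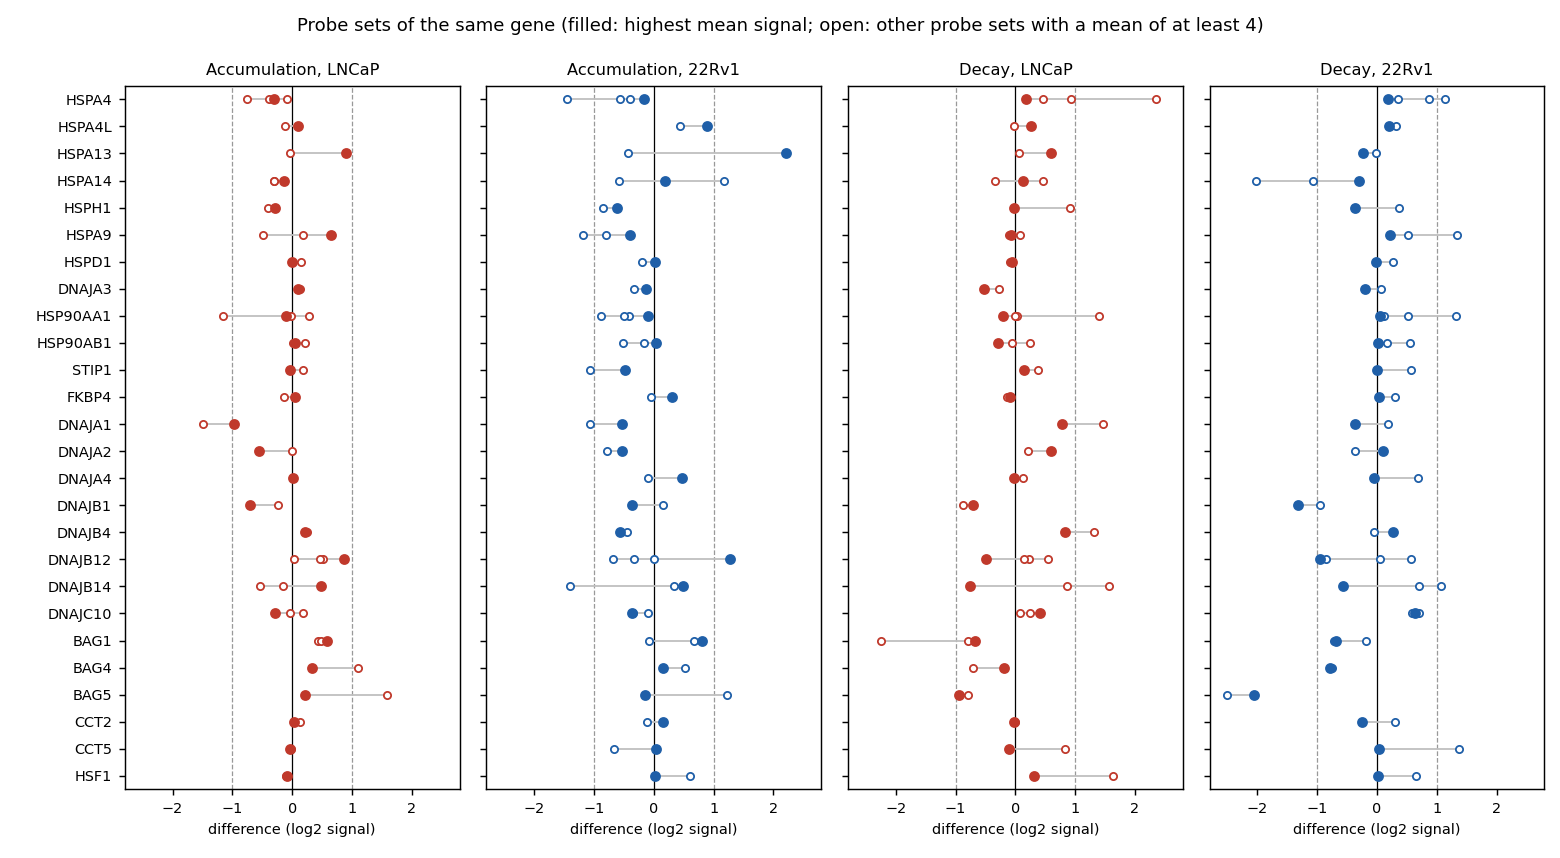
Difference in log2 signal (horizontal axis) of every probe set with a mean of at least 4, for the 26 chaperone genes with more than 1, in accumulation and decay in LNCaP and in 22Rv1. Filled points are the probe set with the highest mean signal, open points the others, and grey lines join the extremes of a gene; HSPD1 is tight whereas HSPA13, DNAJB12 and HSP90AA1 span more than 1 in at least 1 panel.

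Between the cell lines calls were frequent, in the chaperones and in all genes alike. Over the 4 treatments limma called 14 of the 39 members higher and 8 lower in LNCaP than in 22Rv1, against 28.5% and 26.8% of 10842 genes, so the share of members called was 56.4% beside 55.3% of all genes. The 4 LNCaP and 4 22Rv1 arrays did not overlap in 18 members, 13 higher and 5 lower in LNCaP, against 47.1% of genes. Because each line is 1 lineage, the p-values cover the spread between its arrays.

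The 8 members lower in LNCaP were led by a J protein. DNAJA4, a type I J protein, was not detected in LNCaP, at 2.32 untreated, 2.33 after caffeine, 2.30 after ActD with caffeine and 2.31 after ActD alone. In 22Rv1 it was at 8.59 untreated, 9.06 after caffeine, 9.07 after ActD with caffeine and 9.01 after ActD alone. The estimate was -6.62, and its second probe set gave -4.03. HSPA2 was lower by 3.43. Both genes reached a mean of 4, the limit for testing, only through their 22Rv1 arrays. Their LNCaP signals lay under the floor, where the lowest signal on any array was 2.27. The size and spread of these differences are therefore limited by the floor. HSPB8 was lower by 2.47 (SE 0.20, adjusted p = 0.000269 by limma). BAG1 was lower by 1.61 (SE 0.14, adjusted p = 0.00038), and none of the arrays of these 4 genes overlapped between lines. HSP90AB1, the constitutive HSP90, averaged 12.90 ± 0.13 in LNCaP and 13.45 ± 0.04 in 22Rv1 (SD over 4 treatments), a difference of -0.55 (SE 0.14, adjusted p = 0.019 by limma). The steroid receptor cofactor FKBP4 was at -0.60 with arrays that overlapped.

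Of the 14 members higher in LNCaP, CHORDC1 had the largest estimate. It had 10.69 untreated, 10.39 after caffeine, 9.60 after ActD with caffeine and 10.18 after ActD alone in LNCaP. Its 22Rv1 values were 7.84 untreated, 7.67 after caffeine, 7.43 after ActD with caffeine and 7.43 after ActD alone. The estimate was 2.62 (SE 0.17, adjusted p = 0.000129 by limma), and its arrays did not overlap between the lines. HSPH1 was higher by 2.18 (SE 0.18), DNAJB12 by 1.76 (SE 0.18) and HSPA14 by 1.74 (SE 0.16), and none of their arrays overlapped. The HSP110 relatives HSPA4 and HSPA4L were higher by 1.47 and 0.66, so all 3 HSP110-type genes were called in this direction, although the fourth probe set of HSPA4 went the other way. HSPB1 was higher by 1.18 (SE 0.16), the mitochondrial J protein DNAJA3 by 0.93, CCT5 by 0.88 and STIP1 by 0.62.
DNAJB4 (1.53), DNAJA2 (1.36), BAG5 (1.29) and BAG2 (0.72) were called higher as well, and DNAJB14 (-0.70) and HSPA13 (-1.16) lower. HSPD1 and HSPE1, at -0.04 each (SE 0.13), HSF1 at -0.20 (SE 0.18) and HSP90AA1 at 0.31 (SE 0.14) were not called.
Of the 22 members called, 17 have another tested probe set, and in 12 of these every other one had the same sign. In 4, another probe set was called the opposite way: DNAJA2 (the second, -1.15), HSPA4 (the fourth, -1.32), HSPA13 (the second, 0.95) and DNAJB14 (the second and the third, 1.57 and 1.64). Without 1 treatment's array 17 to 21 of the 22 were called, the losses being DNAJB14, FKBP4, HSP90AB1, HSPA4L and STIP1.

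**Figure D4:**
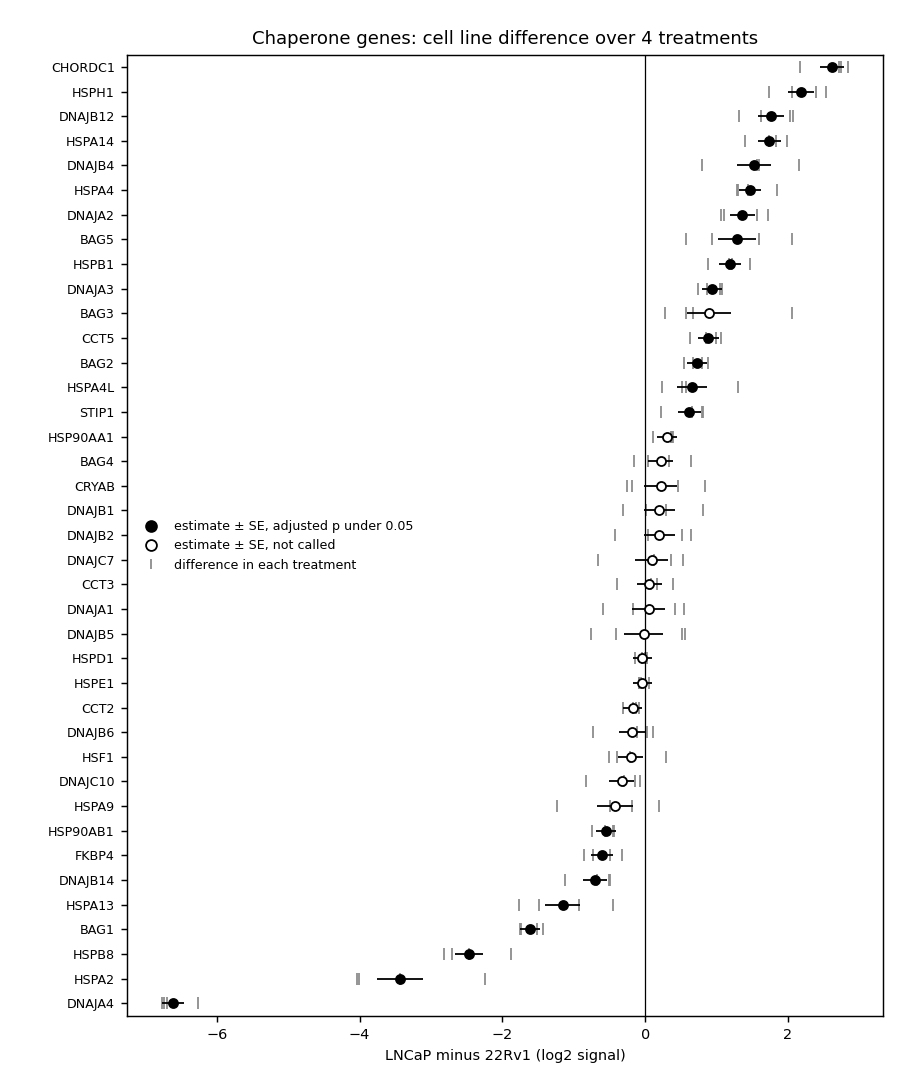
LNCaP minus 22Rv1 difference in log2 signal (horizontal axis) for 39 chaperone genes (rows), as the limma estimate with its standard error, filled where the adjusted p is under 0.05 (22 genes), and as ticks for the difference in each of the 4 treatments. CHORDC1 and HSPH1 stand farthest to the right (higher in LNCaP) and DNAJA4, HSPA2 and HSPB8 farthest to the left.

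Further chaperone genes of the same systems were counted from a second list. Of 68 listed, 64 had a probe set of their own and 55 were tested, and limma called none for accumulation, degradation, decay or loss (6, 3, 7 and 4 at an unadjusted p under 0.05), while 16 were higher and 8 lower in LNCaP. After caffeine their median was 0.02 in LNCaP and -0.05 in 22Rv1, where, of 54 detected, 2 were past 1 upwards and 4 downwards. The 9 other chaperonin and prefoldin genes had 0 past 1 after caffeine in either line, with medians of 0.06 and 0.02.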

How the data were processed

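RNA from 8 cultures was hybridized to Affymetrix U133 Plus 2.0 arrays. The authors turned the scans into log2 signals with gcRMA, that is convolution background correction, quantile normalization and a summary of the probes of each set, and deposited those. In the submitters' notes RMA and GCRMA appear without versions. The deposited log2 values were used unchanged. The number of arrays limits the precision.

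The platform annotation gives 41097 of 54675 probe sets 1 gene symbol, 1801 several and 11777 none, and 41043 of the first kind matched RefSeq (GRCh38.p14), which changed 0 symbols. limma 3.58.1 in R 4.3.3 (lmFit, eBayes, terms for treatment and cell line, 3 residual degrees of freedom, prior 2.93) was run on the probe sets whose mean was 4 or more, after a test on simulated data. Calls needed an adjusted p under 0.05 (Benjamini-Hochberg). Alternatives were other cut-offs, floors, filters, scalings and variance settings, no block, the mean of a gene's probe sets, and leaving out each array.

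Members and lists were chosen with earlier results of these data known. Named with every array's value were members past 1 in both lines, called in a treatment comparison, the 3 highest and lowest per comparison and line, and the 4 highest and lowest between lines. Tables and motif matches were made with python 3.11.15, pandas 2.3.3 and numpy 2.4.6, and figures with matplotlib 3.10.9.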

Additional observations from a re-analysis of the deposited data

Results flagged for a closer look

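DNAJB5, a J-domain gene of the HSP40 class, is given here because its accumulation had opposite directions in the lines, at 0.54 in LNCaP and -0.78 in 22Rv1. Whether the lines differ in it was not tested, since each value is the difference of 2 single arrays. The second DNAJB5 probe set was below the floor of 4 on every array.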

How the results depend on the processing

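The counts per line, given for LNCaP and then 22Rv1, moved with the cut-off and with the scaling. Members lower in decay and in loss moved farthest with poly-A scaling. Shares of all genes are given only for a difference of 1 with the deposited values. The counts here therefore show how the members move with the setting, not how they differ from other genes. With a cut-off of 0.5, members higher were 6 and 6 for accumulation, 6 and 2 for degradation, 4 and 2 for decay and 4 for loss (LNCaP), and members lower were 3 and 9, 9 (LNCaP), 7 and 7, and 7 (LNCaP). With 1.3 there were 0 lower for degradation and 1 for loss in LNCaP and 2 for loss in 22Rv1. Detection at 6 gave 0 lower for degradation in LNCaP and 1 in 22Rv1, and setting signals under 4 to 4 gave 1 in 22Rv1. Poly-A scaling gave 2 and 6 higher for accumulation, 3 and 1 higher and 0 and 1 lower for degradation, 33 and 29 lower for decay with 0 higher in 22Rv1, and 23 and 11 lower for loss with 0 higher in 22Rv1. The mean of a gene's probe sets gave 1 lower (LNCaP) and 1 higher (22Rv1) for accumulation, 1 higher (LNCaP) and 1 lower (22Rv1) for degradation, 2 higher and 1 lower for decay and 1 lower for loss in LNCaP.

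Across the lines, poly-A scaling called 37 members lower in decay and 29 in loss. This scaling moves all genes of an array alike, and no share of all genes called is given beside these counts. The 8 members lower in LNCaP became 5 with a mean of at least 6 and with no filter, 4 with poly-A scaling, and 5 to 8 when single arrays were left out, and the 14 higher became 18 with poly-A scaling, 16 with a variance trend, 15 with the mean of a gene's probe sets, 11 with no block and with no filter, and 12 to 13 when single arrays were left out. A mean of at least 6 leaves BAG2, DNAJA4, HSPA2 and HSPB8 untested, and for the other changes the cause was not tested. Poly-A scaling ended the calls of DNAJB14, FKBP4, HSP90AB1 and HSPA13, and 18 of 22 remained. The HSP90AA1 call in decay, from the fourth of its probe sets, was also lost with no block, no filter, only the 4 arrays compared (adjusted p = 1.0, 0.13 and 0.132 by limma) and the mean of its probe sets (0.40, adjusted p = 0.195), and was kept with a variance trend (0.0115). Of the calls between lines, 1 changed sign under an alternative, DNAJB14, at -0.70 in its probe set of highest mean and 0.84 (adjusted p = 0.00322 by limma) over the mean of its probe sets. The fit compares treatments within each cell line, and since every group has 1 array there is no replicate number to serve as a further block.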
